A study of Homo sapiens with 8 samples.

Results

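The mitosis and spindle genes described here are 42 genes chosen by symbol: mitotic kinases, cyclins and the proteins that switch on CDK1, spindle motors, other spindle microtubule proteins, kinetochore and checkpoint proteins, the chromosomal passenger complex with topoisomerase II, and the proteins of anaphase and cytokinesis. All 42 were among the 15597 genes listed in every library, and all 42 were among the 9805 genes that passed the filter of at least 1 FPKM in at least 2 libraries. FPKM is the number of reads of a gene scaled by gene length and library size. The RNA came from SUDHL-4, a cell line of human diffuse large B-cell lymphoma. The 4 groups were cells overexpressing FDX1 (FDX1-OE) given 5 nM elesclomol (ES) for 48 h, control cells of WT genotype given ES in the same way, FDX1-OE cells given the solvent DMSO, and control cells given DMSO, with 2 libraries each. Elesclomol carries copper into cells, and FDX1 is the gene of the mitochondrial electron carrier ferredoxin 1, known as a target of the drug. The labels do not say which vector or promoter drove FDX1, whether the FDX1-OE cells were 1 clone, what the control cells carried, or whether the 2 libraries of a group came from separate cultures. P-values may rest on technical spread alone.

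Entry into mitosis is driven by CDK1 bound to cyclin B. CDC25 phosphatases remove the inhibitory phosphates from CDK1, and PLK1 and the Aurora kinases build the spindle. The spindle checkpoint holds cells back until every kinetochore is attached, after which CDC20 activates the anaphase-promoting complex, an E3 ubiquitin ligase that marks securin and cyclin B for destruction. Most of these genes are transcribed mainly in G2 and M phase, and FOXM1 is one of the factors that drive them. In RNA from whole cultures, fewer cells in G2 and M phase and less RNA in each such cell cannot be told apart, and this holds for each result below.

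FDX1 had 82.5 and 84.8 FPKM in FDX1-OE cells in ES, against 21.3 and 21.4 FPKM in control cells in ES. In DMSO it had 72.4 and 69.9 FPKM in FDX1-OE cells, against 25.6 and 22.2 FPKM in control cells. The libraries held between 33435438 and 35883528 reads. All 8 markers of B cells were at 24.8 FPKM or more in each library. Of the T and NK cell markers, CD3E had between 3.91 and 8.32 FPKM, while CD3D and CD3G were at or near 0. Of the 6 myeloid markers, CD14, LYZ, CSF1R and ITGAM stayed at or below 0.28 FPKM in each library. CD68 and FCER1G made up most of that list, whose summed level was 36.7 and 39.7 FPKM in FDX1-OE cells in ES, 16.5 and 12.3 FPKM in control cells in ES, 8.18 and 7.07 FPKM in FDX1-OE cells in DMSO, and 4.30 and 4.03 FPKM in control cells in DMSO. The list was thus highest in FDX1-OE cells in ES, the group with the lowest summed level of the members below. Its part in the ES results was not tested. Epithelial and stromal markers were near 0 apart from VIM and PECAM1, which had at most 1.59 FPKM.

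The members were well covered in every group. Their lowest value in any library was 5.56 FPKM, the fewest reads of a member were 381, and their median level in control cells in DMSO was 35.7 FPKM, against 10.9 FPKM over all tested genes. PLK1, the kinase that drives centrosome maturation and bipolar spindle assembly, had the highest level in control cells in DMSO at 174 ± 5.09 FPKM (SD, n = 2). PTTG1, the securin that holds separase inactive, followed at 163 ± 5.15 FPKM, CDC20 at 159 ± 0.329 FPKM and UBE2C at 158 ± 0.867 FPKM (SD, n = 2 each), and the levels of PTTG1, CDC20 and UBE2C lay within 1 SD of PTTG1 of each other. The lowest levels in that group were those of the motor KIF18A at 8.14 ± 0.557 FPKM and of the phosphatase CDC25C at 5.56 ± 0.00408 FPKM (SD, n = 2 each). Summed over the 42 members the level was 2036 and 2101 FPKM in FDX1-OE cells in ES and 2250 and 2320 FPKM in control cells in ES. It was 2312 and 2378 FPKM in FDX1-OE cells in DMSO and 2349 and 2299 FPKM in control cells in DMSO. Both FDX1-OE libraries in ES lay below the other 6, and control cells in ES overlapped the DMSO libraries.

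**Figure D1:**
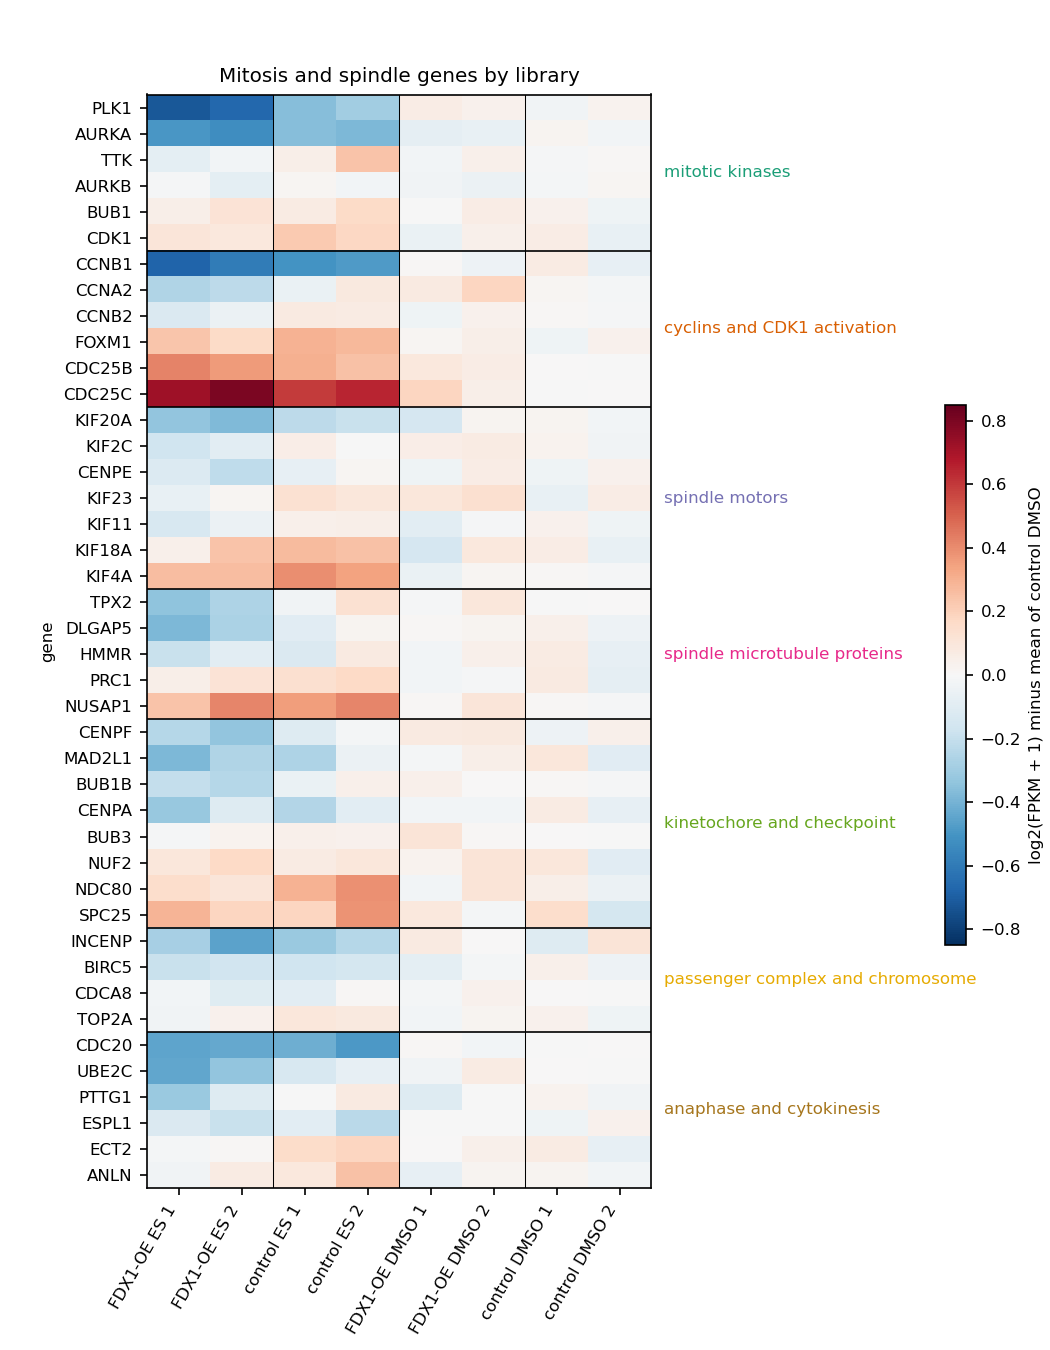
Each of the 42 members (rows, grouped by class) in each of the 8 libraries (columns), as log2(FPKM + 1) minus the mean of the control DMSO libraries; blue is lower and red is higher than that mean. PLK1, AURKA, CCNB1 and CDC20 are blue in all 4 ES libraries, CDC25C is red in all 4, and CCNA2, TPX2, DLGAP5 and CENPF are blue mainly in the 2 FDX1-OE ES libraries.

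Members moved in both directions in ES. In FDX1-OE cells 15 of the 42 members fell and 5 rose, while 22 did not pass the test (limma on log2(FPKM + 1), adjusted p below 0.05 over all tested genes). Over all tested genes 19.2% were called lower and 37.0% higher in the same comparison. In control cells 7 members fell and 8 rose, against 12.9% of all tested genes called lower and 25.5% called higher. The members' median log2 change was -0.11 in FDX1-OE cells, against 0.09 over all tested genes, and 0.04 in control cells, against 0.06 over all tested genes. All 5 members that rose in FDX1-OE cells also rose in control cells, where they are 62.5% of the 8. Of the members that fell, PLK1, AURKA, CCNB1, CDC20, INCENP and KIF20A did so in both genotypes, which is 40% of the 15 and 85.7% of the 7. The overlap of calls over all tested genes was not counted. The responses of the genotypes had a Pearson r of 0.84 over all tested genes, so shared calls are not particular to the members. The count of rises depends on the scaling. When libraries were scaled by the median ratio over genes (RLE), the median change of all tested genes in FDX1-OE cells moved to -0.03, and 29 members were called lower and 2 higher, against 31.7% and 24.3% of all genes. Relative to the median of all tested genes, 33 of the 42 members lay lower in FDX1-OE cells without that scaling and 35 with it.

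**Figure D2:**
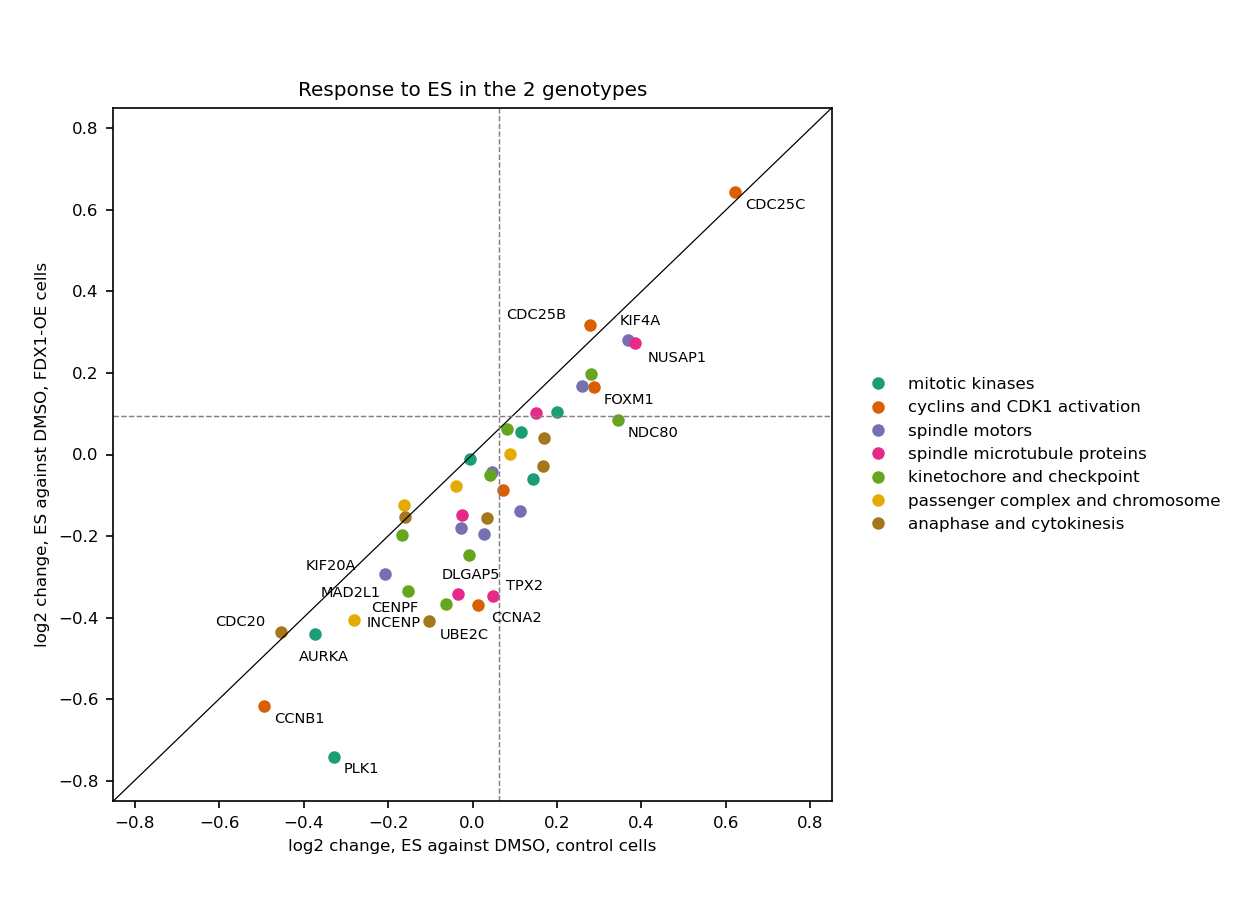
Log2 change in ES against DMSO for each of the 42 members, in FDX1-OE cells (vertical axis) and in control cells (horizontal axis), with 1 point a gene coloured by class; the solid line marks equal changes and the dashed lines the medians of all tested genes. CDC25C, CDC25B, KIF4A and NUSAP1 lie at the upper right, CCNB1, CDC20 and AURKA at the lower left, and 37 of the 42 points lie below the line of equal change.

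Among the 6 mitotic kinases, PLK1 and AURKA fell in both genotypes, CDK1 was called higher in control cells, and the others were called in neither genotype. Over all tested genes 19.2% were called lower and 37.0% higher in FDX1-OE cells, and 12.9% and 25.5% in control cells. PLK1 had 105 and 109 FPKM in FDX1-OE cells in ES, 135 and 141 FPKM in control cells in ES, 182 and 178 FPKM in FDX1-OE cells in DMSO, and 170.2 and 177 FPKM in control cells in DMSO. Both ES groups lay below both DMSO groups, and FDX1-OE cells in ES lay lowest, with no overlap. The log2 change in ES was -0.74 in FDX1-OE cells (SE 0.05, 0.598-fold on the FPKM + 1 scale, adjusted p = 1.59e-06) and -0.33 in control cells (0.796-fold, adjusted p = 0.000727). AURKA, the kinase of centrosomes and spindle poles, had 27.7 and 27.0 FPKM in FDX1-OE cells in ES, 30.4 and 29.9 FPKM in control cells in ES, 37.3 and 37.6 FPKM in FDX1-OE cells in DMSO, and 40.0 and 38.7 FPKM in control cells in DMSO. Again both ES groups lay below both DMSO groups. Its log2 change was -0.44 in FDX1-OE cells (adjusted p = 5.31e-05) and -0.37 in control cells (adjusted p = 0.000452). AURKB, the kinase of the passenger complex at centromeres, lay between 101 and 109 FPKM over all 8 libraries, with a log2 change of -0.01 in FDX1-OE cells (adjusted p = 0.849). CDK1 itself was at 49.3 and 48.7 FPKM in FDX1-OE cells in ES, against 43.9 and 47.2 FPKM in FDX1-OE cells in DMSO (a log2 change of 0.10, adjusted p = 0.161). In control cells CDK1 rose by 0.20 on the log2 scale (adjusted p = 0.023), but not with RLE scaling (adjusted p = 0.151), nor without the first control ES library or the second control DMSO library, where the adjusted p reached 0.159. The checkpoint kinases TTK and BUB1 passed the test in neither genotype. The summed level of the 6 kinases was 349 FPKM in both FDX1-OE libraries in ES, 390 and 396 FPKM in control cells in ES, 427 and 429 FPKM in FDX1-OE cells in DMSO, and 425 and 427 FPKM in control cells in DMSO.

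The class of cyclins and CDK1 activation held the widest spread. CCNB1, the cyclin B1 that partners CDK1, had 64.0 and 68.1 FPKM in FDX1-OE cells in ES, 72.2 and 73.7 FPKM in control cells in ES, 104 and 99.9 FPKM in FDX1-OE cells in DMSO, and 108 and 98.1 FPKM in control cells in DMSO. All 4 ES libraries lay below all 4 DMSO libraries. The log2 change was -0.62 in FDX1-OE cells (SE 0.06, 0.652-fold, adjusted p = 1.54e-05) and -0.49 in control cells (0.71-fold, adjusted p = 0.000207). CCNB2, the second B-type cyclin, stayed between 98.0 and 112 FPKM in all libraries and passed the test in ES against DMSO in neither genotype (log2 change -0.09 in FDX1-OE cells and 0.07 in control cells). CCNA2, the cyclin A2 of S and G2 phase, had 68.5 and 70.3 FPKM in FDX1-OE cells in ES, 78.8 and 87.1 FPKM in control cells in ES, 86.5 and 93.5 FPKM in FDX1-OE cells in DMSO, and 82.9 and 81.2 FPKM in control cells in DMSO. FDX1-OE cells in ES lay below the other 3 groups. Control cells in ES overlapped both DMSO groups, and FDX1-OE cells in DMSO lay above control cells in DMSO. CCNA2 fell in FDX1-OE cells (log2 change -0.37, 0.774-fold, adjusted p = 0.000487), while in control cells its log2 change was 0.01 (adjusted p = 0.875).

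The CDC25 phosphatases and FOXM1 went the other way. CDC25C had 9.82 and 10.4 FPKM in FDX1-OE cells in ES, 8.90 and 9.29 FPKM in control cells in ES, 6.46 and 5.80 FPKM in FDX1-OE cells in DMSO, and 5.56 and 5.56 FPKM in control cells in DMSO. Every ES library lay above every DMSO library. The log2 change was 0.64 in FDX1-OE cells (SE 0.07, 1.56-fold, adjusted p = 3.74e-05) and 0.62 in control cells (1.54-fold, adjusted p = 0.000153). CDC25B rose by 0.32 in FDX1-OE cells (adjusted p = 0.000473) and by 0.28 in control cells (adjusted p = 0.00229), and both CDC25 genes kept their calls in FDX1-OE cells with RLE scaling. FOXM1 rose by 0.17 in FDX1-OE cells (adjusted p = 0.018) and by 0.29 in control cells (adjusted p = 0.00176). In FDX1-OE cells FOXM1 changed by only 0.02 with RLE scaling (adjusted p = 0.727), and its call was also lost without the first ES library or either DMSO library of FDX1-OE cells (adjusted p of up to 0.111).

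Among the 7 spindle motors, 3 fell and 1 rose in FDX1-OE cells, beside 19.2% of all tested genes called lower and 37.0% called higher. KIF20A, a kinesin of the central spindle, had 26.8 and 26.0 FPKM in FDX1-OE cells in ES, 28.9 and 29.7 FPKM in control cells in ES, 30.7 and 34.5 FPKM in FDX1-OE cells in DMSO, and 34.5 and 33.5 FPKM in control cells in DMSO. All 4 ES libraries lay below all 4 DMSO libraries. Its log2 change was -0.29 in FDX1-OE cells (adjusted p = 0.00255) and -0.21 in control cells (adjusted p = 0.0253), and the call in control cells was lost without any 1 of the 4 control libraries (adjusted p of up to 0.118). KIF4A, a kinesin that binds chromosome arms and the central spindle, had 20.4 FPKM in both libraries of FDX1-OE cells in ES, 22.5 and 21.6 FPKM in control cells in ES, 16.2 and 17.1 FPKM in FDX1-OE cells in DMSO, and 17.0 and 16.7 FPKM in control cells in DMSO. Every ES library lay above every DMSO library, and control cells in ES lay highest. KIF4A rose by 0.28 in FDX1-OE cells (adjusted p = 0.0019) and by 0.37 in control cells (adjusted p = 0.000862), and with RLE scaling its change in FDX1-OE cells was 0.14 (adjusted p = 0.0504). Its near-identical copy KIF4B had between 0.129 and 0.224 FPKM, and the sources used here do not say how reads that fit both were counted. KIF2C, which takes apart microtubule ends, changed by -0.19 in FDX1-OE cells (adjusted p = 0.0117; up to 0.0824 without the first ES library or either DMSO library of those cells). CENPE, the kinetochore motor that brings chromosomes to the spindle equator, changed by -0.18 (adjusted p = 0.0486), a call that was lost without any 1 of the 8 libraries. KIF11, KIF18A and KIF23 passed the test in neither genotype.

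Of the other spindle microtubule proteins, TPX2 and DLGAP5 fell in FDX1-OE cells, and NUSAP1 rose in both genotypes. TPX2, which activates AURKA and starts microtubules near chromosomes, had 84.8 and 89.5 FPKM in FDX1-OE cells in ES, 105 and 118 FPKM in control cells in ES, 107 and 115 FPKM in FDX1-OE cells in DMSO, and 108 and 108 FPKM in control cells in DMSO. FDX1-OE cells in ES lay below the other 3 groups, which overlapped. The log2 change of TPX2 was -0.35 in FDX1-OE cells (0.786-fold, adjusted p = 0.000982) and 0.05 in control cells (adjusted p = 0.565). DLGAP5, which bundles microtubules of the spindle, had 24.7 and 26.7 FPKM in FDX1-OE cells in ES, 30.3 and 33.0 FPKM in control cells in ES, 32.7 and 32.9 FPKM in FDX1-OE cells in DMSO, and 33.4 and 31.4 FPKM in control cells in DMSO. The groups stood as for TPX2, with a log2 change of -0.34 in FDX1-OE cells (adjusted p = 0.00117) and -0.03 in control cells (adjusted p = 0.704). NUSAP1, which links microtubules to chromatin, rose by 0.27 in FDX1-OE cells (adjusted p = 0.00421) and by 0.38 in control cells (adjusted p = 0.00118), and with RLE scaling its change in FDX1-OE cells was 0.13 (adjusted p = 0.102). HMMR and PRC1 passed the test in neither genotype.

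Of the 8 kinetochore and checkpoint genes, CENPF, MAD2L1 and BUB1B fell in FDX1-OE cells and NDC80 and SPC25 rose in control cells. Over all tested genes 19.2% were called lower in FDX1-OE cells and 25.5% higher in control cells. None of the genes just named passed the interaction test of a difference in response given further on. CENPF, a large protein of the outer kinetochore, had 19.5 and 18.2 FPKM in FDX1-OE cells in ES, 21.5 and 23.0 FPKM in control cells in ES, 24.5 and 24.7 FPKM in FDX1-OE cells in DMSO, and 22.6 and 23.9 FPKM in control cells in DMSO. FDX1-OE cells in ES lay lowest, and the 2 control groups overlapped. CENPF changed by -0.37 in FDX1-OE cells (adjusted p = 0.000597) and by -0.06 in control cells (adjusted p = 0.449). MAD2L1, the MAD2 protein that inhibits CDC20 at the checkpoint, had 13.7 and 15.1 FPKM in FDX1-OE cells in ES, 15.0 and 17.6 FPKM in control cells in ES, 17.9 and 18.9 FPKM in FDX1-OE cells in DMSO, and 19.5 and 16.9 FPKM in control cells in DMSO. The ES and DMSO libraries of FDX1-OE cells did not overlap, while those of control cells did. MAD2L1 changed by -0.33 in FDX1-OE cells (adjusted p = 0.00856; up to 0.0656 without the first ES library or the second DMSO library of those cells) and by -0.15 in control cells (adjusted p = 0.195). BUB1B, the checkpoint protein BUBR1, changed by -0.25 in FDX1-OE cells (adjusted p = 0.00285) and by -0.01 in control cells (adjusted p = 0.914). NDC80, of the complex that grips microtubules, rose by 0.34 in control cells (adjusted p = 0.00273), against a change of 0.08 in FDX1-OE cells (adjusted p = 0.3). SPC25, of the same complex, rose by 0.28 in control cells (adjusted p = 0.047), a call that held in 6 of 16 alternatives. RLE scaling ended it (adjusted p = 0.147), and of the libraries left out in turn it held only without the first control ES or the first control DMSO library (adjusted p of up to 0.341 without the others). BUB3, CENPA and NUF2 passed the test in neither genotype.

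In the passenger complex, INCENP fell in both genotypes. INCENP, the scaffold that binds and activates AURKB, had 22.5 and 19.8 FPKM in FDX1-OE cells in ES, 21.9 and 23.1 FPKM in control cells in ES, 29.0 and 27.6 FPKM in FDX1-OE cells in DMSO, and 25.5 and 29.7 FPKM in control cells in DMSO. All 4 ES libraries lay below all 4 DMSO libraries, and the genotypes overlapped. Its log2 change was -0.41 in FDX1-OE cells (adjusted p = 0.00182) and -0.28 in control cells (adjusted p = 0.0216; up to 0.173 without the first control ES library or the second control DMSO library). BIRC5, the survivin subunit, changed by -0.12 in FDX1-OE cells (adjusted p = 0.065) and by -0.16 in control cells (adjusted p = 0.0335; up to 0.19 without either control ES library or the first control DMSO library). CDCA8, the borealin subunit, stayed between 68.8 and 76.2 FPKM in all libraries, and TOP2A, which untangles sister chromatids, between 82.2 and 90.0 FPKM. CDCA8 and TOP2A passed the test in neither genotype.

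In the class of anaphase and cytokinesis CDC20 fell in both genotypes and UBE2C fell in FDX1-OE cells. PTTG1, ESPL1, ANLN and ECT2 passed the test of ES against DMSO in neither genotype. CDC20, which activates the anaphase-promoting complex and is held by the checkpoint, had 116 and 117 FPKM in FDX1-OE cells in ES, 119 and 113 FPKM in control cells in ES, 160.1 and 157 FPKM in FDX1-OE cells in DMSO, and 159 and 159 FPKM in control cells in DMSO. The 4 ES libraries lay below the 4 DMSO libraries, and the genotypes overlapped in each treatment. The log2 change was -0.44 in FDX1-OE cells (0.739-fold, adjusted p = 3.13e-05) and -0.45 in control cells (0.731-fold, adjusted p = 8.52e-05). UBE2C, the ubiquitin-conjugating enzyme of the same complex, had 116 and 125 FPKM in FDX1-OE cells in ES, 144 and 150.4 FPKM in control cells in ES, 155 and 166 FPKM in FDX1-OE cells in DMSO, and 159 and 157 FPKM in control cells in DMSO. FDX1-OE cells in ES lay well below the other groups, and control cells in ES lay just below the DMSO libraries. UBE2C changed by -0.41 in FDX1-OE cells (0.754-fold, adjusted p = 0.000133) and by -0.10 in control cells (adjusted p = 0.162). PTTG1 changed by -0.16 in FDX1-OE cells (adjusted p = 0.079), and ESPL1, the separase that cuts cohesin, by -0.15 (adjusted p = 0.0567). The contractile ring genes ANLN and ECT2 had log2 changes of 0.04 and -0.03 in FDX1-OE cells and 0.17 each in control cells, where the adjusted p was 0.0819 for ANLN and 0.0614 for ECT2.

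**Figure D3:**
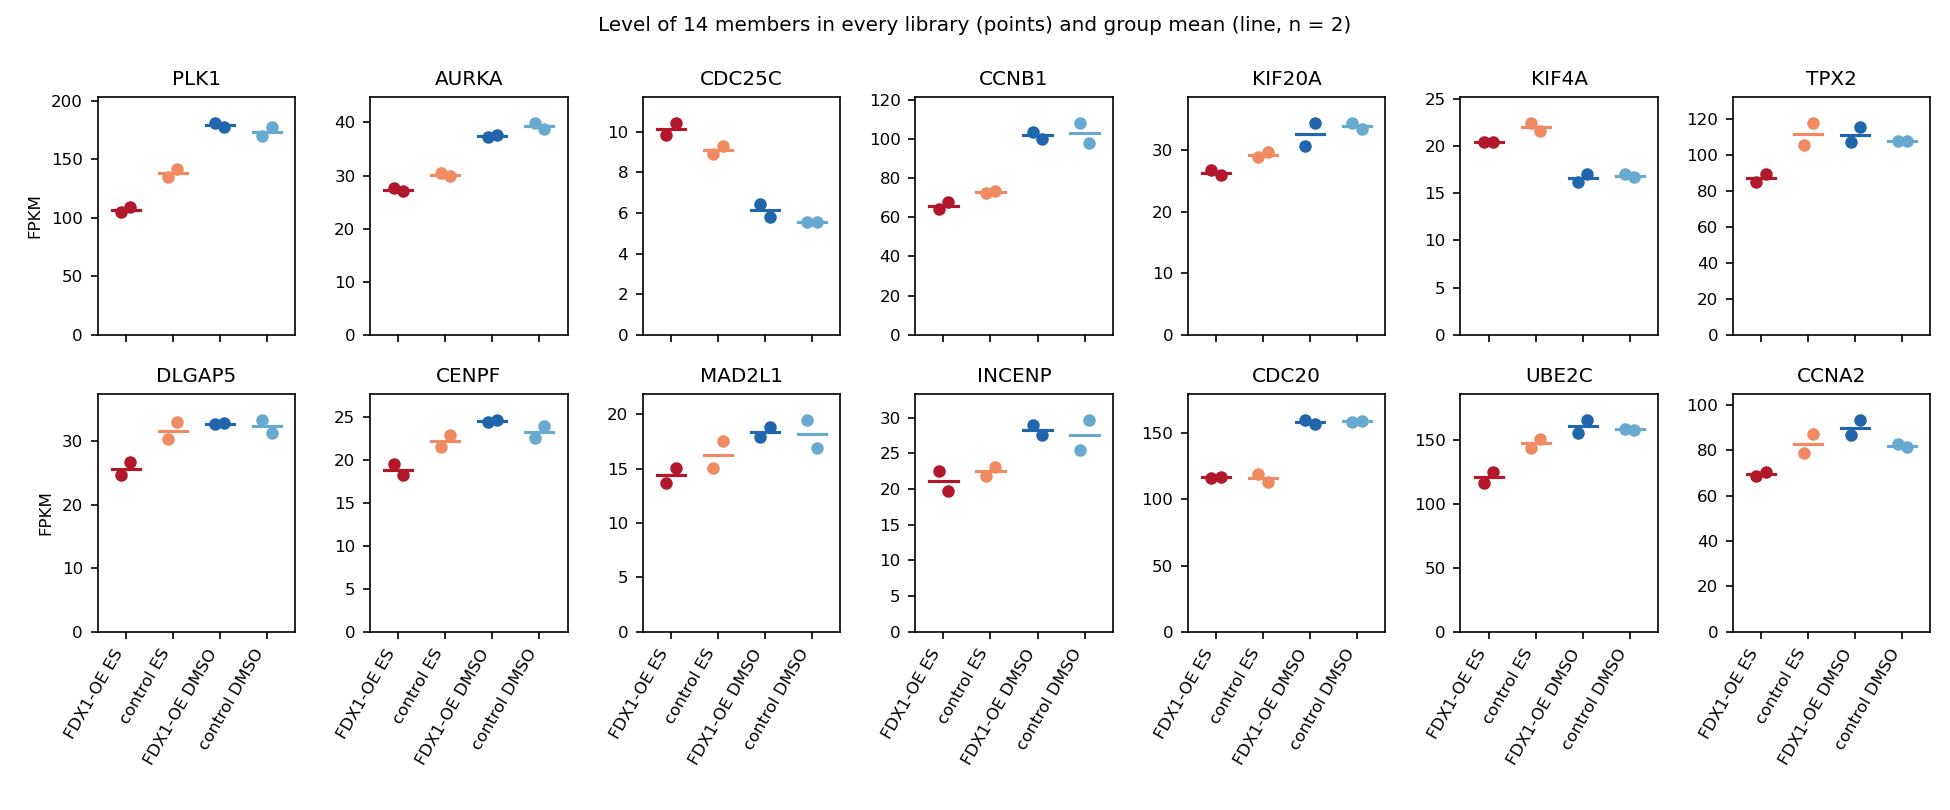
Level in FPKM (vertical axis, from 0) of 14 members in each library, by group along the horizontal axis; points are libraries and lines are group means (n = 2). PLK1, AURKA, CCNB1 and CDC20 are lower and CDC25C is higher in all 4 ES libraries, while TPX2, DLGAP5, CCNA2 and UBE2C are low in the 2 FDX1-OE ES libraries.

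The promoters of these genes carry letters known from cell-cycle promoters: CCAAT boxes, which bind NF-Y, and the cell-cycle homology region (CHR), which binds the DREAM and MuvB complexes. RefSeq promoters on GRCh38.p14 were matched by symbol for 35 of the 42 members, each running from 250 bases before to 50 bases after the start of the gene. For genes with several starts the one listed first was used. The letters searched were CCAAT and, for the CHR, TTTGAA or TTCGAA, on both strands, and the letters allow the motifs to share at most a single base. The CHR letters stood in 26 of the 35 promoters (74.3%), against 11.3% of the 8079 promoters of tested genes and 16.6% of all 27305 promoters. CCAAT stood in 27 of the 35 (77.1%), against 38.5% of the promoters of tested genes and 35.7% of all promoters. Both stood in 22 of the 35 (62.9%), against 5.09% of the promoters of tested genes. The promoters of the 2 members that fell most and the 2 that rose most in FDX1-OE cells, among members with 1 listed start, are shown beside their changes, with CCAAT (or ATTGG, the same box on the other strand) and the CHR letters in capitals. All are on the plus strand of GRCh38.p14: PLK1 at chr16:23678639-23678938, CCNB1 at chr5:69166900-69167199, KIF4A at chrX:70289854-70290153 and NUSAP1 at chr15:41332631-41332930.
PLK1: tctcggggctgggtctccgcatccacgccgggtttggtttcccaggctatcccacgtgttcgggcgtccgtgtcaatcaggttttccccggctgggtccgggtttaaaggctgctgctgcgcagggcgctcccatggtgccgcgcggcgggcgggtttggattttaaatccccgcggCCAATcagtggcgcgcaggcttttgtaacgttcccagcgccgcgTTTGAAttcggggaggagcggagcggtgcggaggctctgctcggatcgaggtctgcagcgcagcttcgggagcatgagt
CCNB1: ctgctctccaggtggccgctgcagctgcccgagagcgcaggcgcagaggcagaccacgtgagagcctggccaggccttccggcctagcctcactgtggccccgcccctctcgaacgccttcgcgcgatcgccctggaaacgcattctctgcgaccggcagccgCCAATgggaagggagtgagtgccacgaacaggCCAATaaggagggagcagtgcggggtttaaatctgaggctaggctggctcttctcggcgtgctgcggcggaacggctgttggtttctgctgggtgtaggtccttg
KIF4A: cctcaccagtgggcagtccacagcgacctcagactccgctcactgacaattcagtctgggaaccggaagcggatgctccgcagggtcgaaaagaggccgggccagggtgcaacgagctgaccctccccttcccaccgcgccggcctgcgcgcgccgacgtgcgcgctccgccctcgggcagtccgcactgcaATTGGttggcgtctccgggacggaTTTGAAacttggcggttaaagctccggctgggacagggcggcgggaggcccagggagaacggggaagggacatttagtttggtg
NUSAP1: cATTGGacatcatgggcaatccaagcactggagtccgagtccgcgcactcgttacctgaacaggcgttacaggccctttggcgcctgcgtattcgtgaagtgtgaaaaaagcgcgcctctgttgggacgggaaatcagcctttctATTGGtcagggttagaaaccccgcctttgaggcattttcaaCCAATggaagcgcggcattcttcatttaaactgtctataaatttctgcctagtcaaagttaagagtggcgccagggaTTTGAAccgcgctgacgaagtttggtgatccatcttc

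PLK1, which fell in ES, and KIF4A, which rose, each held 1 CCAAT box and 1 CHR match, the CHR match 29 bases before the start in PLK1 and 34 bases before it in KIF4A. CCNB1, which fell, held 2 CCAAT boxes and no CHR letters in this window, and NUSAP1, which rose, held 3 CCAAT boxes and 1 CHR match. CDC25C and CDC25B, which rose more than KIF4A and NUSAP1, have 4 listed starts each and so are not shown. Their first listed start held neither motif, while at least 1 of their other starts held CCAAT letters and at least 1 held CHR letters, so the splits by motif that follow depend on the start chosen. The median log2 change in ES in FDX1-OE cells was -0.06 over the 26 members with the CHR letters, of which 7 fell and 2 rose. Over the 9 members without them the median was -0.18, of which 5 fell and 2 rose. Split by CCAAT, the median was -0.14 over the 27 members with the box, of which 9 fell and 2 rose, and 0.05 over the 8 without it, of which 3 fell and 2 rose. Over all tested genes 19.2% were called lower and 37.0% higher in that comparison, and the splits by motif were not tested. A match of letters is a description and not a bound site.

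FDX1-OE cells and control cells were then compared within each treatment, which asks how FDX1 overexpression shifts these genes with and without the drug. In ES 10 of the 42 members were lower in FDX1-OE cells and 0 were higher, against 7.78% of all tested genes called lower and 13.6% called higher. At an unadjusted p below 0.05, 1 member was higher and 17 were lower, and the share of all tested genes at that level was not counted. Voom on recovered reads called 0 higher and 11 lower, against 16.1% and 9.16% of all tested genes. The 10 were PLK1, TPX2, DLGAP5, UBE2C, CCNA2, PTTG1, CENPF, NDC80, BUB1B and CCNB2. PLK1 changed most (log2 change -0.36, 0.777-fold, adjusted p = 0.000999), followed by TPX2 (-0.35, adjusted p = 0.00418), DLGAP5 (-0.29, adjusted p = 0.0108) and UBE2C (-0.28, adjusted p = 0.00585). PTTG1 had 131 and 151 FPKM in FDX1-OE cells in ES, against 162 and 171 FPKM in control cells in ES (log2 change -0.25, adjusted p = 0.0313); its near-identical copy PTTG2 had at most 0.0409 FPKM. CCNB2 had the smallest change of the 10 (-0.16, adjusted p = 0.0478), and its call was lost without any 1 of the 8 libraries. CDC20 and INCENP, which fell in both genotypes, had log2 changes of 0.01 (adjusted p = 0.901) and -0.09 (adjusted p = 0.485) in this comparison. The median log2 change of the members was -0.13, against 0.03 over all tested genes, and 39 of the 42 lay below that median. Members also leaned 1 way between the libraries of a group, which limits what such counts mean. Of the 42, 28 were higher in the second library in each ES group, 31 in FDX1-OE cells in DMSO and 12 in control cells in DMSO. Over all tested genes these shares ran from 46.0% to 52.3%. No spindle motor passed the test, yet all 7 had changes between -0.16 and -0.11. The count of 10 was not stable, since it fell when any 1 library was left out, DMSO libraries included. Such a fit leaves a group with 1 library and less power, so a lost call does not show that a single library carried the change. The log2 change of PLK1 in ES lay between -0.42 and -0.33 over the 16 alternatives.

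In DMSO 0 of the 42 members were called in either direction, against 0.428% of all tested genes called higher and 0.0816% called lower. No member had an unadjusted p below 0.05, and voom on recovered reads also called 0. The members' log2 changes lay between -0.07 and 0.13, and their 95% intervals together between -0.23 and 0.28. PLK1 averaged 179.8 ± 2.38 FPKM in FDX1-OE cells in DMSO and 174 ± 5.09 FPKM in control cells in DMSO (SD, n = 2 each).

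**Figure D4:**
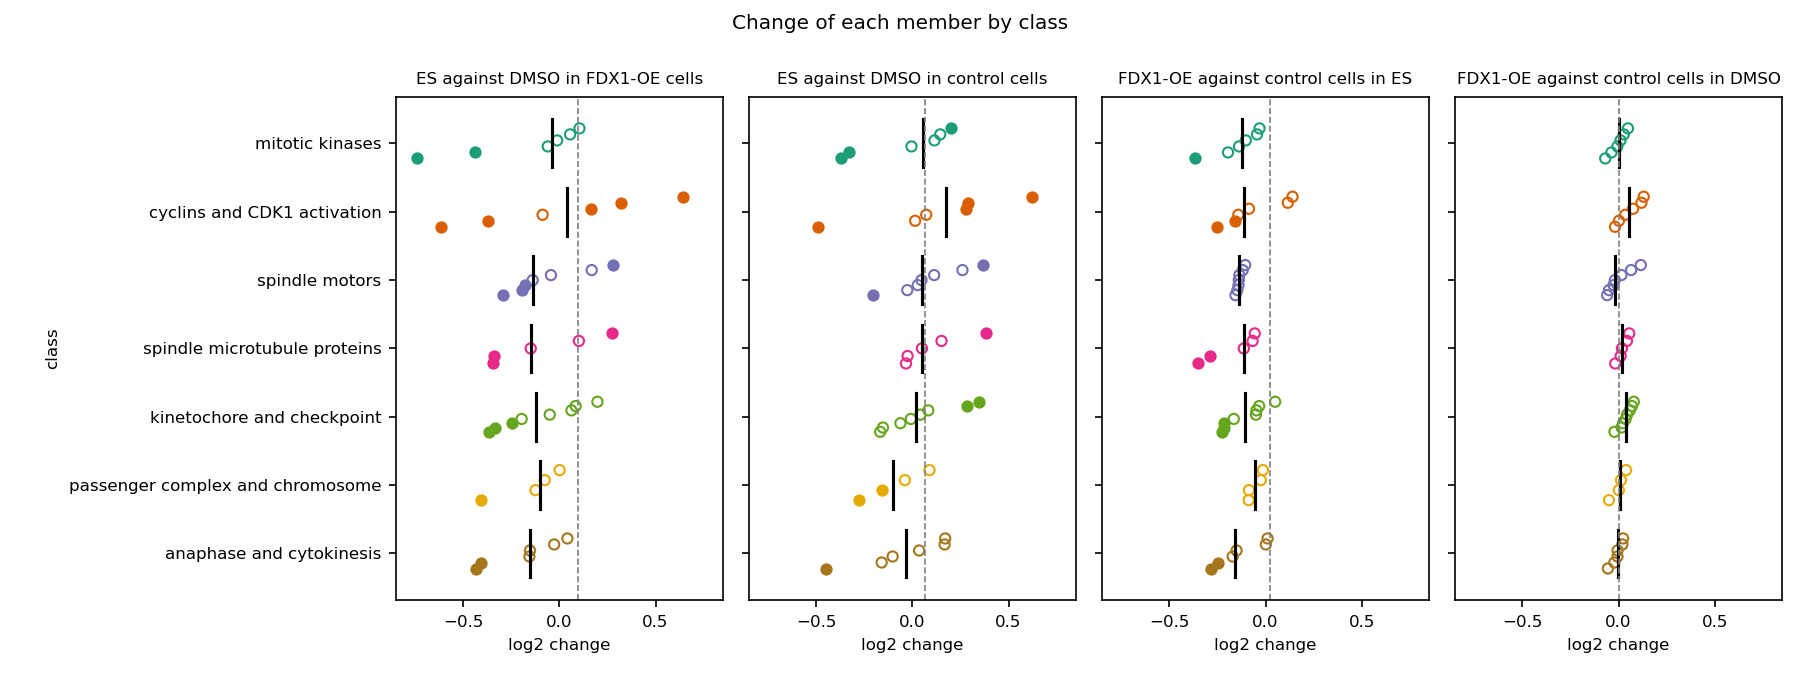
Log2 change of each member (points) by class (rows) in 4 comparisons (panels); filled points passed the test, open points did not, black bars are class medians and dashed lines the median of all tested genes. In ES the points of FDX1-OE against control cells lie mostly below 0 in every class, and in DMSO they lie between -0.07 and 0.13 with none filled.

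Whether the response to ES differed between genotypes was tested by the interaction, taken as the response in FDX1-OE cells less the response in control cells. It called 3 of the 42 members lower and 0 higher, against 1.05% of all tested genes called lower and 3.25% called higher. At an unadjusted p below 0.05 there were 11 members lower and 0 higher. The share of all tested genes at that level was not counted, so these counts have no background and are not read as a result. Voom on recovered reads called 6 lower and 0 higher, against 2.49% and 4.03% of all tested genes. PLK1 had an interaction of -0.41 on the log2 scale (SE 0.07, adjusted p = 0.0128), TPX2 of -0.40 (SE 0.09, adjusted p = 0.0398) and CCNA2 of -0.38 (SE 0.09, adjusted p = 0.0384). The call of PLK1 was lost without the first FDX1-OE ES, second control ES, first FDX1-OE DMSO or first control DMSO library (adjusted p of up to 0.0565). Those of TPX2 and CCNA2 held only without the first control ES library among the 8 that were left out in turn (adjusted p of up to 0.137 and 0.135). DLGAP5, CENPF and UBE2C had interactions of -0.31, -0.30 and -0.30 and did not pass (adjusted p = 0.0804, 0.0755 and 0.0539). For CDC20, CDC25C and AURKA the interaction was 0.02, 0.02 and -0.07 (adjusted p = 0.917, 0.926 and 0.633). The responses of the genotypes share no library. Across the 42 members, which are not independent replicates, they had a Pearson r of 0.90 and a Spearman rho of 0.89, against 0.84 and 0.81 over all tested genes. The response was lower in FDX1-OE cells for 37 of the 42 members (88.1%), against 44.8% of all tested genes.

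By class, the anaphase and cytokinesis genes had the lowest median change in ES in FDX1-OE cells at -0.15, level with the spindle microtubule proteins at -0.15, and then came the motors at -0.14, the kinetochore genes at -0.12, the passenger complex at -0.10, the kinases at -0.04 and the cyclins and CDK1 activators at 0.04. In control cells the passenger complex was lowest at -0.10 and the cyclins and CDK1 activators highest at 0.17. Each class is small, and each median conceals members that moved apart. Of the 42 members, 16 passed no test in any comparison before any alternative was applied: ANLN, AURKB, BUB1, BUB3, CDCA8, CENPA, ECT2, ESPL1, HMMR, KIF11, KIF18A, KIF23, NUF2, PRC1, TOP2A and TTK. The share of all tested genes that passed none was not counted. Several of the 16 passed under an alternative, among them AURKB, TTK and TOP2A, which were called lower in FDX1-OE cells with RLE scaling.

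Further genes of mitosis were counted from a separate list of 89 genes, of which 88 were tested. In FDX1-OE cells 30 rose and 16 fell in ES, beside 37.0% of all tested genes called higher and 19.2% called lower, and the median log2 change was 0.09, equal to that of all tested genes. In control cells 40 rose and 7 fell, beside 25.5% and 12.9% of all tested genes, with a median of 0.16 against 0.06 over all tested genes. MASTL, the Greatwall kinase that keeps mitotic phosphatases off, had 13.3 and 12.4 FPKM in FDX1-OE cells in ES, against 6.12 and 7.24 FPKM in FDX1-OE cells in DMSO (a log2 change of 0.85, adjusted p = 4.7e-05). The kinetochore genes DSN1 and MIS12 rose by 0.67 and 0.65 in FDX1-OE cells. KPNA2, an importin, had 130.2 and 137 FPKM in FDX1-OE cells in ES, against 201 and 204 FPKM in FDX1-OE cells in DMSO (a log2 change of -0.60, adjusted p = 5.3e-06). The tubulin gene TUBA1C and the cyclin F gene CCNF fell by 0.58 and 0.52 in the same cells. TUBA1C is close in sequence to TUBA1B, so its reads may be split between the copies.

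A further list held inhibitors of CDKs and other genes that restrain the cell cycle, in G1 as well as in G2. Of its 16 tested genes 11 rose and 1 fell in FDX1-OE cells in ES, and 7 rose and 0 fell in control cells. WEE1, a brake on G2 in this list, was called in neither genotype in ES against DMSO. Over all tested genes 37.0% were called higher and 19.2% lower in FDX1-OE cells, and 25.5% and 12.9% in control cells. CDKN1A, the p21 inhibitor of cyclin-CDK complexes, had 2.53 and 2.60 FPKM in FDX1-OE cells in ES, 0.813 and 1.11 FPKM in control cells in ES, 0.387 and 0.341 FPKM in FDX1-OE cells in DMSO, and 0.382 and 0.287 FPKM in control cells in DMSO. FDX1-OE cells in ES lay highest, control cells in ES next, and the DMSO groups overlapped. On the FPKM + 1 scale, which understates low genes, its log2 change was 1.39 in FDX1-OE cells (adjusted p = 2.54e-06) and 0.55 in control cells (adjusted p = 0.00204). Its interaction of 0.83 (adjusted p = 0.013) was lost with a pseudocount of 0.1, with voom on recovered reads and without the first control DMSO library (adjusted p = 0.0577). BTG2 and GADD45B, both antiproliferative genes, rose by 0.72 and 0.66 in FDX1-OE cells, and E2F4, which sits in the DREAM complex, fell by 0.34. Of 12 tested cyclins and E2F genes of the G1/S transition, 7 rose and 1 fell in FDX1-OE cells, and 7 rose and 0 fell in control cells, to be read beside the same shares of all tested genes. CCNE2, the cyclin E2 that drives entry into S phase, had 23.6 and 23.1 FPKM in FDX1-OE cells in ES, against 7.77 and 8.999 FPKM in FDX1-OE cells in DMSO (a log2 change of 1.38, adjusted p = 3.76e-07). In FDX1-OE cells E2F1 and E2F7 rose by 0.82 and 0.76, and CDK6 fell by 0.19 (adjusted p of CDK6 0.0122, up to 0.099 without the second ES or second DMSO library of those cells).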

How the data were processed

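RNA of 8 libraries of SUDHL-4 cells was measured, 2 for each of 4 groups. Per the labels' protocols, total RNA was extracted with TRIzol and libraries were made with the VAHTS Universal V6 kit. The build hg19 and the tools HTSeq, HISAT2 and R 3.2.0 are named per the submitters' processing notes. What each tool did, which annotation was used and whether strand was counted is not given in the sources used here. FPKM values were deposited by the authors, 1 per gene. No header names the unit, so it was read from the values: every gene's values were whole multiples of 1 read, within a tolerance of 0.02 reads, which gave the read totals of 33435438 to 35883528.

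Group means were fitted to all 8 libraries on log2(FPKM + 1) with limma 3.58.1 in R 4.3.3 (4 residual and 6.62 prior degrees of freedom, eBayes with a mean trend). The filter (1 FPKM or more in 2 or more libraries) left 9805 genes. Tests were two-sided with Benjamini-Hochberg adjustment over these genes in each comparison, and calls were made below an adjusted p of 0.05. Folds on FPKM + 1 understate changes of low genes. The fit was also run on simulated counts in which few genes changed, unlike these data, so that run does not bear on the choice of scaling. The 2 libraries of each group differed beyond sampling noise (chi-square per gene of 6.55 to 9.64), so none was counted as 1 library. The plan named a test for counts if the values were counts; they were FPKM, so limma was used.

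The members and lists were chosen with earlier results of these data known. Values in each library are given for the 2 members of each class with the largest change among those called in ES against DMSO in FDX1-OE cells and for members called in the interaction; the other genes are given by changes and counts, and for some by ranges or values chosen after they were seen. From other lists at most 3 genes called in each direction are named. Alternatives were no filter, a mean of at least 5 FPKM, a pseudocount of 0.1, RLE scaling, no mean trend, only the libraries compared, a replicate block, voom on recovered reads and each library left out in turn.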

Additional observations from a re-analysis of the deposited data

Results flagged for a closer look

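With all 8 libraries, the response to ES passed the test of a difference between the genotypes for 3 members. The interaction was -0.41 for PLK1, -0.40 for TPX2 and -0.38 for CCNA2 on the log2 scale. These calls depend on the fit: those with no filter and with no mean trend each called 1 member lower. Calls were also lost when 1 library was left out, but such a fit leaves a group with 1 library and less power. The interaction of PLK1 lay between -0.47 and -0.38 on the log2 scale over its 15 alternatives. PLK1 fell in both genotypes, by 0.74 in FDX1-OE cells and by 0.33 in control cells. TPX2 and CCNA2 fell in FDX1-OE cells and had log2 changes of 0.05 and 0.01 in control cells. The myeloid markers CD68 and FCER1G, whose levels are given above, were highest in FDX1-OE cells in ES, the group where these 3 members were lowest. The order of the other groups was not the same, and the part of these markers was not tested. Groups of 2 libraries cannot be examined for a library that stands apart.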

How the results depend on the processing

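Among the called results of members and other named genes, none changed direction under the alternatives: 1223 kept their call and 156 lost it with the same sign. Many of these checks could not have changed the direction. The filters, the mean trend, the replicate block and libraries outside the comparison do not alter the log2 change of a gene. Only the pseudocount, RLE scaling, voom and the loss of a library in the comparison can alter it. Among results that were not called, 71 passed under an alternative and 1 turned round, TOP2A in FDX1-OE cells, which changed by -0.14 with RLE scaling (adjusted p = 0.0341). RLE scaling gave 2 members higher and 29 lower in ES in FDX1-OE cells, 18 lower for FDX1-OE against control cells under ES and 6 lower in the interaction; it also took the share of higher genes among all called in FDX1-OE cells to 43.4%, against 65.9% without it. With no filter the counts lower for FDX1-OE against control cells under ES and in the interaction were 6 and 1. For this fit and those with no mean trend, a library left out or a replicate block, the share of all tested genes was not counted. The interaction called 1 with no mean trend and 6 with voom on recovered reads. Leaving out 1 library at a time gave 4 to 5 higher and 12 to 16 lower in ES in FDX1-OE cells, 6 to 10 higher and 5 to 7 lower in control cells, 2 to 9 lower for FDX1-OE against control cells under ES and 0 to 3 lower in the interaction; the lone library of a group is then assumed to vary like the others. With replicate number as a block the counts were 5 higher and 14 lower, 9 higher and 7 lower, 10 lower and 4 lower in the same order. The replicate numbers alone do not show whether same-numbered libraries were handled together. Correlations of same-numbered deviations between groups, across 9805 genes, ran from -0.18 to 0.181. They were positive among FDX1-OE cells in ES, control cells in ES and FDX1-OE cells in DMSO (0.103 to 0.181). Between control cells in DMSO and each of those groups they were negative (-0.18 to -0.049). A shared batch was not tested, nor was the cause of the shifts in counts between alternatives. With 2 libraries a group, changes of about 0.2 on the log2 scale lie near the threshold for ES against DMSO and for FDX1-OE against control cells in ES. The interaction has a larger SE, and DLGAP5 at -0.31 did not pass it.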
